A study of Mus musculus with 12 samples.

Results

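The expression of 10 genes of nucleotide sensing was followed across conventional dendritic cells (cDC) of the mouse spleen: the receptor genes P2ry14, P2ry13, P2ry12, P2ry10, P2ry6, P2ry1, P2rx7 and P2rx4, and the ectoenzyme genes Entpd1 and Nt5e. These 10 genes, of 19938 with a value on the arrays, were picked by name as purinergic receptors and nucleotide-degrading enzymes, with earlier results of the same arrays known. Each was read by 1 probe set. Mature cells of the cDC1 and cDC2 branches were sorted at steady state from Flt3 knockout (KO) mice, Flt3L KO mice and wild-type (WT) mice. Flt3 encodes the receptor tyrosine kinase on which cDC development depends, and Flt3l encodes its ligand. The 6 groups were Flt3 KO cDC1, Flt3L KO cDC1, WT cDC1, Flt3 KO cDC2, Flt3L KO cDC2 and WT cDC2, each with 2 arrays described as biological replicates. The labels give no strain, allele, age or sex, and do not say whether mice were pooled. A p-value here sets a difference against the spread between arrays of the same group, pooled over the 6 groups.

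Cells under stress, dying cells and activated cells release ATP, ADP, UTP and UDP-sugars, which act on neighbouring cells through G protein-coupled P2Y receptors and ATP-gated P2X channels. On the cell surface CD39 (Entpd1) removes phosphates from ATP and ADP, and CD73 (Nt5e) turns the resulting AMP into adenosine. In dendritic cells these receptors and enzymes are known for their part in sensing tissue damage, in migration and in inflammasome activation.

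Values are given as linear intensities in array units, with array medians of 59.0 to 63.0. After the dimmest genes were left out, 14953 genes were tested, among them 9 of the 10. P2ry12 was too dim, with a mean log2 intensity of 4.49 against a lowest kept value of 4.78. WT cDC1 replicate 1 was unlike the rest, with a lower quartile of 25.7 beside 23.3 to 24.3 elsewhere. The log2 difference between the replicates of WT cDC1 had a standard deviation (SD) of 0.21 over genes, and 0.13 to 0.15 in the other groups. The labelled cell types carried their markers: in WT cells, 8 of 8 cDC1 markers were higher and 8 of 8 cDC2 markers lower in cDC1 than in cDC2 by limma. In Flt3 KO against WT cells, Flt3 fell by 2.66 on the log2 scale in cDC1 (adjusted p = 5.3e-10) and fell by 2.30 in cDC2 (adjusted p = 3.2e-09). Flt3l had means of 124 in Flt3L KO cDC1 against 113 in WT cDC1 (adjusted p = 0.403), and 113 in Flt3L KO cDC2 against 147 in WT cDC2, where it fell by 0.37 on the log2 scale (adjusted p = 0.0267). Flt3l was thus not lower in Flt3L KO cDC1, and since the deleted part of the gene was not known here, its probe set could not check that label.

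P2ry14, which encodes a Gi-coupled receptor for UDP-glucose and related UDP-sugars, had the widest range of the 10 genes. It was bright in cDC1 and dim in cDC2 of every genotype. Its intensity was 1362 and 1269 in Flt3 KO cDC1, 1189 and 1171 in Flt3L KO cDC1, and 1284 and 1267 in WT cDC1. In cDC2 it was 50.5 and 45.8 in Flt3 KO, 82.8 and 65.2 in Flt3L KO, and 34.2 and 38.3 in WT. The 3 cDC2 groups did not overlap: both Flt3L KO arrays lay above both Flt3 KO arrays, and these above both WT arrays. With 2 arrays per group such separation was common. Among the 9 tested genes, Flt3L KO cDC2 lay wholly above WT cDC2 for 3 and wholly below for 3. The share over all tested genes was not counted. The level in cDC1 over that in cDC2 was 27.3-fold in Flt3 KO, 16.1-fold in Flt3L KO and 35.2-fold in WT, which is 4.77, 4.01 and 5.14 on the log2 scale with a standard error (SE) of 0.11. P2ry14 was dim in cDC2, where background may remain in the values, so these folds and those between cDC2 groups are imprecise and may be understated. In sorted bulk RNA, fewer cells of a type and less RNA per cell cannot be told apart.

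P2ry14 lies on chromosome 3 (GRCm38.p6, 59114623 to 59153492, minus strand) beside P2ry13 (59207892 to 59210882) and P2ry12 (59216271 to 59262985), inside the span of Med12l (59005419 to 59318446). P2ry13 and P2ry14 were the receptor genes that changed in a knockout, described further on, so the 250 bases before the first listed start of P2ry14 (chr3:59153493-59153742, minus strand) and before the start of P2ry13 (chr3:59210883-59211132, minus strand) are shown, from RefSeq. Capitals mark letters of an AP-1 type motif (TGANTCA) or of a PU.1 type motif (GAGGAA, or TTCCTC on the other strand).
P2ry14, start 1: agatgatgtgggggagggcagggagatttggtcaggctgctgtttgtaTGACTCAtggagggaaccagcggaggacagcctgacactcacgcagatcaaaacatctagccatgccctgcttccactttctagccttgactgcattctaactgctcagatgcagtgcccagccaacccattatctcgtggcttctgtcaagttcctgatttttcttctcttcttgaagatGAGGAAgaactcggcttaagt
P2ry13: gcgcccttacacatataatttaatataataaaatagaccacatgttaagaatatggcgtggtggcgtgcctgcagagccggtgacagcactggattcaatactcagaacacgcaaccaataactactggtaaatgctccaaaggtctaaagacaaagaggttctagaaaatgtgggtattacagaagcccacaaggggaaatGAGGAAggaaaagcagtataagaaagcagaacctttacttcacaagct
The P2ry14 stretch holds TGACTCA, ending 196 bases before the start, and GAGGAA, ending 16 bases before it, while the P2ry13 stretch holds GAGGAA, ending 43 bases before the start. RefSeq lists 4 starts of P2ry14, and GAGGAA or its complement stands before each of them, although the stretches of starts 2 and 3 overlap and share that copy. Over the 15 such stretches of 9 of the genes (P2ry6 was not among them), 4 held the AP-1 type motif, 7 the PU.1 type motif and 0 a paired IRF motif (GAAA, any 2 bases, GAAA), searched on both strands. Of all 32851 stretches of this length, 6.75% held the AP-1 type motif, 23.3% the PU.1 type motif and 2.98% the IRF motif. These are matches of letters in one window and say nothing of binding.

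P2ry13 and P2ry12 encode Gi-coupled receptors for ADP, and P2ry12 is known from platelets and microglia. P2ry13 ran opposite to its neighbour P2ry14, with higher levels in cDC2. Its intensity was 43.3 and 50.1 in Flt3 KO cDC1, 52.2 and 50.6 in Flt3L KO cDC1, and 47.3 and 47.7 in WT cDC1. In cDC2 it was 118 and 119.9 in Flt3 KO, 165 and 128 in Flt3L KO, and 80.8 and 95.8 in WT. All 6 cDC2 arrays lay above all 6 cDC1 arrays. Within cDC2 the group means again kept the order Flt3L KO, Flt3 KO, WT. The difference of cDC1 from cDC2 was -1.35 in Flt3 KO, -1.50 in Flt3L KO and -0.89 in WT (log2, SE 0.12 each). P2ry12 stayed between 20.1 and 31.1 on all 12 arrays, with a median of 22.0. Its brightest arrays were those of Flt3L KO cDC2, at 31.1 and 25.5, against 20.4 and 23.1 in WT cDC2, and at this brightness no test was made.

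P2ry10 has the name of a P2Y receptor, although its product is known as a receptor for lysophosphatidylserine. It was higher in cDC2 than in cDC1 in every genotype. Its intensity was 766 and 744 in Flt3 KO cDC1, 687 and 789 in Flt3L KO cDC1, and 592 and 747 in WT cDC1. In cDC2 it was 1215 and 1292 in Flt3 KO, 1185 and 1116 in Flt3L KO, and 1314 and 1415 in WT. The cell types did not overlap, and the WT cDC1 replicates were the farthest apart of the 6 pairs. The difference of cDC1 from cDC2 was -0.73 in Flt3 KO, -0.64 in Flt3L KO and -1.04 in WT (log2, SE 0.11). P2ry10b, its close copy next to it on chromosome X, was dim, with means of 25.3 in WT cDC1 and 52.3 in WT cDC2, and probe sets of such similar genes may share signal.

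P2ry6 encodes a Gq-coupled receptor for UDP, and P2ry1 a Gq-coupled receptor for ADP. P2ry6 was higher in cDC1, with 256 and 233 in Flt3 KO cDC1, 236 and 232 in Flt3L KO cDC1, and 257 and 264 in WT cDC1. The cDC2 arrays had 166 and 149 in Flt3 KO, 143 and 122 in Flt3L KO, and 149 and 142 in WT, with no overlap between the cell types. The difference of cDC1 from cDC2 was 0.64, 0.83 and 0.84 in Flt3 KO, Flt3L KO and WT (log2, SE 0.09). P2ry1 had nearly the same dim signal on all 12 arrays, from 38.2 to 46.6, and its cell type differences of -0.03, -0.06 and -0.07 in Flt3 KO, Flt3L KO and WT were smaller than their SE of 0.10.

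P2rx7 encodes the channel that opens at high ATP and triggers the NLRP3 inflammasome, and P2rx4 a channel with higher affinity for ATP that is also found on lysosomes. P2rx7 and P2rx4 lie side by side on chromosome 5 (GRCm38.p6, 122643927 to 122692336 and 122707518 to 122729739) and leaned to opposite cell types. P2rx7 had 309 and 307 in Flt3 KO cDC1, 265 and 282 in Flt3L KO cDC1, and 295 and 316 in WT cDC1. The cDC2 arrays had 209.8 and 235 in Flt3 KO, 196 and 195 in Flt3L KO, and 212 and 221 in WT. Every cDC1 array was above every cDC2 array, and the cell type difference had a similar size throughout, at 0.47 in Flt3 KO, 0.49 in Flt3L KO and 0.50 in WT (log2, SE 0.08). P2rx4 had 542 and 565 in Flt3 KO cDC1 against 673 and 702 in Flt3 KO cDC2, and 536 and 527 in WT cDC1 against 672 and 649.5 in WT cDC2. The cDC1 arrays lay below the cDC2 arrays in both, with a difference of -0.31 on the log2 scale in each (SE 0.08). In Flt3L KO it had 609.97 and 608 in cDC1 against 664 and 599 in cDC2, so the arrays overlapped there, with a difference of -0.05.

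The ectoenzymes differed little between the cell types of WT mice. Entpd1 had 517 and 506 in Flt3 KO cDC1, 332 and 319.8 in Flt3L KO cDC1, and 513 and 569.6 in WT cDC1. The cDC2 arrays had 469.7 and 487 in Flt3 KO, 404 and 432 in Flt3L KO, and 495 and 498 in WT. The lowest arrays were therefore both of Flt3L KO cDC1, which lay below every other array, followed by Flt3L KO cDC2. The difference of cDC1 from cDC2 was 0.10 in Flt3 KO, -0.36 in Flt3L KO and 0.12 in WT (log2, SE 0.08). Nt5e was dim on all arrays, from 36.5 to 47.0, and no neighbouring groups in the order of its means were free of overlap. Its cDC1 arrays lay above its cDC2 arrays in Flt3 KO and in WT, and overlapped them in Flt3L KO. The difference was small, at 0.21 in Flt3 KO, -0.12 in Flt3L KO and 0.09 in WT (log2, SE 0.09).

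**Figure D1:**
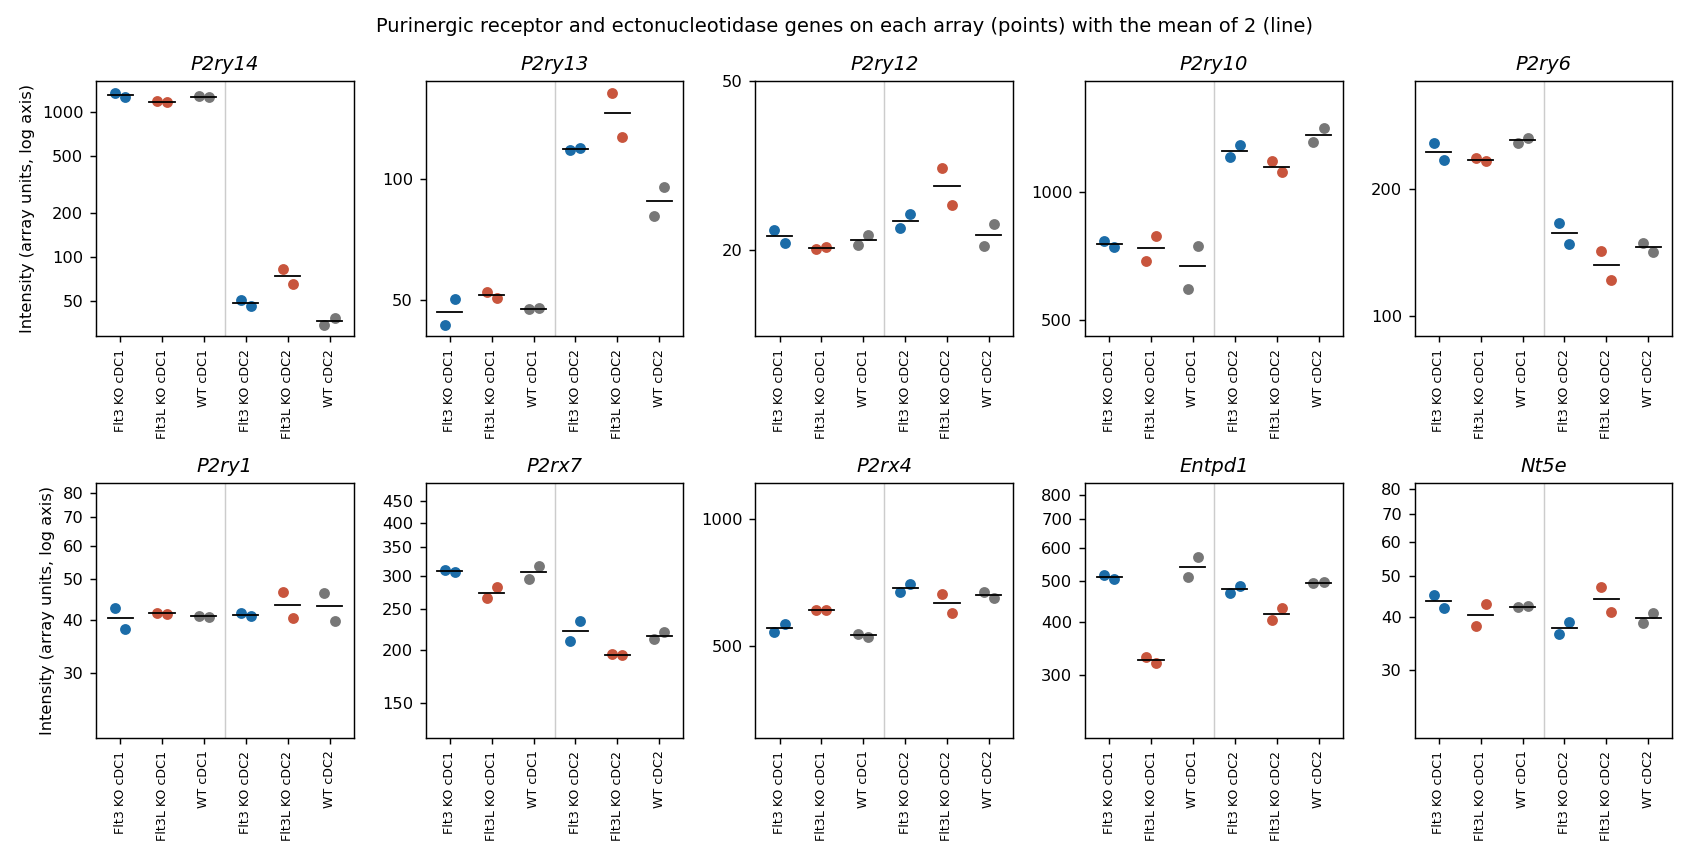
Intensity of each of the 10 genes in array units on a log axis, with 1 point per array and a line at the mean of 2 arrays, for Flt3 KO, Flt3L KO and WT cDC1 on the left of each panel and the same genotypes of cDC2 on the right. P2ry14 is at 1171 or more on all cDC1 arrays and at 82.8 or less on all cDC2 arrays, and Entpd1 is lowest in Flt3L KO cDC1.

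Counted over the 9 genes above the filter on dim genes, cDC1 and cDC2 arrays did not overlap for 8 in Flt3 KO, 6 in Flt3L KO and 8 in WT. Over all tested genes the arrays did not overlap for 66.6% in Flt3 KO, 66.7% in Flt3L KO and 66.5% in WT. P2ry14, P2ry6 and P2rx7 were higher in cDC1 in all 3 genotypes, and P2ry13 and P2ry10 lower. A difference of more than 2-fold was seen for P2ry14 and P2ry13 in both knockouts and for P2ry14 and P2ry10 in WT. These cell type differences are a description without a test, since the genes were listed with such differences known.

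**Figure D2:**
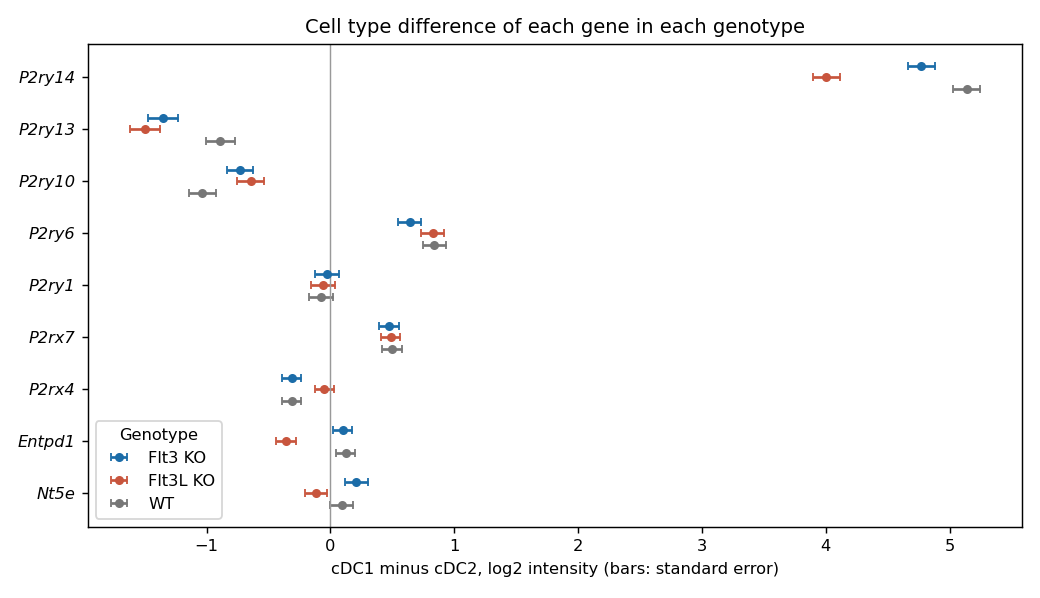
Difference of cDC1 minus cDC2 in log2 intensity for the 9 genes above the filter on dim genes, with bars of 1 standard error, in Flt3 KO, Flt3L KO and WT. P2ry14 stands at 4.77, 4.01 and 5.14, while the other 8 genes lie between -1.50 and 0.84.

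Loss of the receptor left each of the 9 genes without a call. By limma with Benjamini-Hochberg adjustment, 0 of 9 passed in Flt3 KO against WT in cDC1, where 0.0803% of all tested genes passed, and 0 of 9 in cDC2, where 0.107% passed. At an unadjusted p under 0.05 there were 0 genes in cDC1 and 2 in cDC2, P2ry14 and P2ry13. In cDC2 P2ry14 differed by 0.41 ± 0.11 on the log2 scale (SE, adjusted p = 0.275) and P2ry13 by 0.44 ± 0.12 (SE, adjusted p = 0.298), Flt3 KO minus WT. The median difference of the 9 genes was 0.01 in cDC1 and 0.04 in cDC2, beside -0.00 and 0.01 over all tested genes. Averaged over both cell types 0 of 9 passed (2 at an unadjusted p under 0.05), where 0.254% of all tested genes did.

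Loss of the ligand was accompanied by changes in 3 genes, P2ry14, P2ry13 and Entpd1. In Flt3L KO against WT cDC2, 2 of 9 rose and 0 fell, where 1.04% of all tested genes rose and 0.910% fell. In cDC1 1 of 9 fell and 0 rose, where 0.415% fell and 0.776% rose. Both comparisons use the same WT arrays as those with Flt3 KO. The median difference of the 9 genes was -0.06 in cDC1 and -0.07 in cDC2, beside -0.01 and 0.02 over all tested genes.

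P2ry14 rose 2.03-fold in Flt3L KO cDC2, to a mean of 74.0 ± 12.4 against 36.3 ± 2.86 in WT cDC2 (SD, n = 2 each). The difference was 1.02 ± 0.11 on the log2 scale (SE, limma, adjusted p = 5.4e-04). In cDC1 the Flt3L KO minus WT difference was -0.11 ± 0.11 (SE, adjusted p = 0.637). The effects in the cell types differed from each other on the log2 scale: the Flt3L KO effect in cDC1 minus that in cDC2 was -1.13 ± 0.15 (SE, adjusted p = 0.00693), 1 of 9 genes to pass where 0.495% of all tested genes did. The corresponding Flt3 KO difference of effects was -0.37 ± 0.15 (SE, adjusted p = 0.521), and 0 of 9 passed (2 at an unadjusted p under 0.05), as did 0% of all tested genes. Set directly against Flt3 KO cDC2, Flt3L KO cDC2 had a P2ry14 level higher by 0.61 on the log2 scale (adjusted p = 0.0225), the single gene of 9 to pass where 0.930% of all tested genes did. This last call was lost without Flt3 KO cDC2 replicate 1 (adjusted p = 0.0648), without Flt3 KO cDC2 replicate 2 (adjusted p = 0.201) and without Flt3L KO cDC2 replicate 1 (adjusted p = 0.196).

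P2ry13 rose 1.65-fold in Flt3L KO cDC2, to a mean of 146 ± 26.0 against 88.3 ± 10.6 in WT cDC2 (SD, n = 2 each). The difference was 0.72 ± 0.12 on the log2 scale (SE, limma, adjusted p = 0.00953), and in cDC1 it was 0.11 ± 0.12 (SE, adjusted p = 0.666). The call in cDC2 was lost without Flt3L KO cDC2 replicate 1 (0.54, adjusted p = 0.0875) and without WT cDC2 replicate 1 (0.60, adjusted p = 0.104). For P2ry13 the difference of the Flt3L KO effects between the cell types, -0.61, did not pass (adjusted p = 0.142). Set directly against Flt3 KO cDC2, Flt3L KO cDC2 had a P2ry13 level higher by 0.29 on the log2 scale, which did not pass either (limma, adjusted p = 0.333).

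Entpd1 fell 1.66-fold in Flt3L KO cDC1, to a mean of 326 ± 8.45 against 541 ± 40.3 in WT cDC1 (SD, n = 2 each). The difference was -0.73 ± 0.08 on the log2 scale (SE, limma, adjusted p = 0.0013). With only these 4 arrays in the fit the difference was the same and the adjusted p was 0.0972. In cDC2 the difference was -0.25 ± 0.08 (SE, adjusted p = 0.143), and the difference of the effects between the cell types was -0.48 ± 0.11 (SE, adjusted p = 0.0817). Against Flt3 KO cDC1, Entpd1 was lower in Flt3L KO cDC1 by 0.65 on the log2 scale (adjusted p = 0.00191), and 1 of 9 genes passed where 0.883% of all tested genes did. Each Flt3L KO cDC1 array was thus below each Flt3 KO cDC1 array as well as each WT cDC1 array. For this gene RefSeq lists 2 starts, and the 250 bases before each are shown because one carries the PU.1 type motif and the other does not (chr19:40612116-40612365 and chr19:40659520-40659769, plus strand, GRCm38.p6), with the same use of capitals.
Entpd1, start 1: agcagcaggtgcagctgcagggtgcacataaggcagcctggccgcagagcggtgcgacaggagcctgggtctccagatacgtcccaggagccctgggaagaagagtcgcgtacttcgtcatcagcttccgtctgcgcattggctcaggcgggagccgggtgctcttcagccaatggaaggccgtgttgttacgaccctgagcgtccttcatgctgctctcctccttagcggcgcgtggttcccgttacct
Entpd1, start 2: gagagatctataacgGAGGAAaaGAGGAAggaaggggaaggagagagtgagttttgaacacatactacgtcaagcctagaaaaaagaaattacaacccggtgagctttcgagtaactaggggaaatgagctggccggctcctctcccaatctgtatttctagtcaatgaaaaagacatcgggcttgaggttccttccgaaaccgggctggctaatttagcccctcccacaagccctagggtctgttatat
The stretch of start 2 holds GAGGAA ending 230 and 222 bases before the start, and that of start 1 holds none of the 3 motifs.

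Averaged over both cell types, Flt3L KO differed from WT in P2ry14 (0.45, adjusted p = 0.00939), P2ry13 (0.42, adjusted p = 0.0196) and Entpd1 (-0.49, adjusted p = 8.2e-04), so that 2 of 9 rose and 1 fell where 1.67% of all tested genes rose and 1.33% fell. The P2ry13 average was not called without Flt3L KO cDC1 replicate 1 or 2, Flt3L KO cDC2 replicate 1 or WT cDC2 replicate 1 (adjusted p = 0.0747, 0.0539, 0.0738 and 0.0901). The other 6 genes passed in no comparison of genotypes. Among them P2rx4 in cDC1 had the largest Flt3L KO minus WT difference, 0.20 (adjusted p = 0.213), and P2ry10 in cDC2 the most negative one, -0.25 (adjusted p = 0.318).

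**Figure D3:**
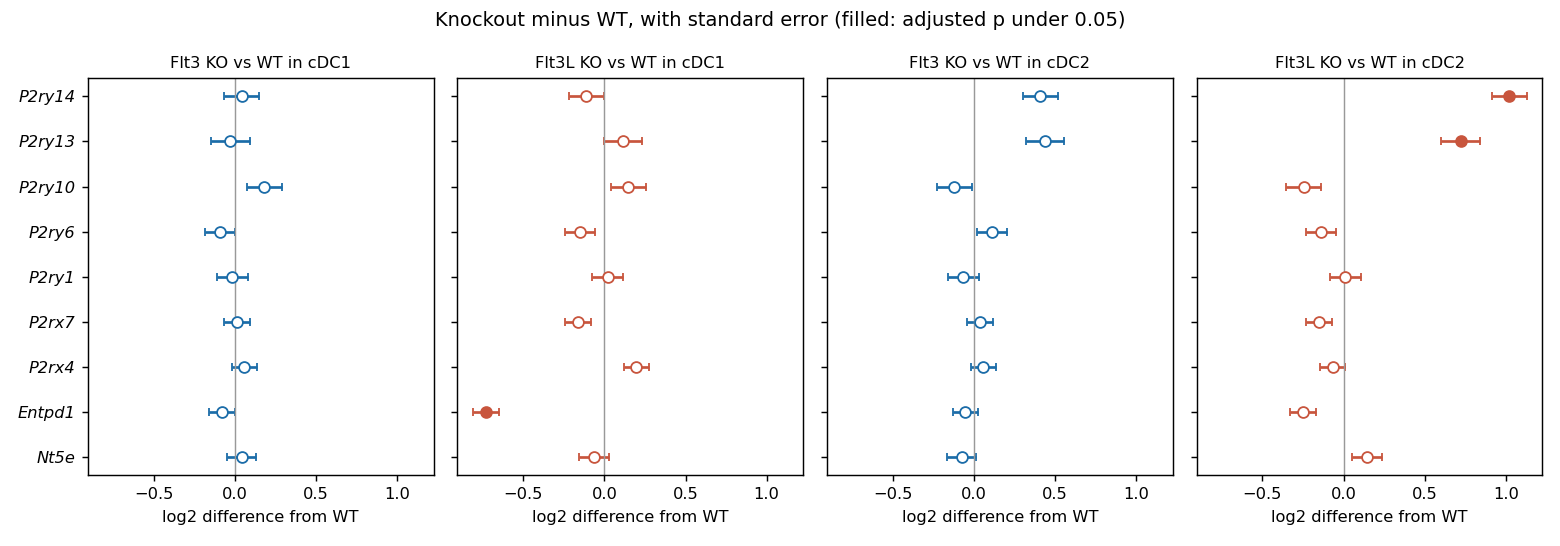
Difference of Flt3 KO or Flt3L KO minus WT in log2 intensity for the 9 genes above the filter on dim genes, within cDC1 and within cDC2, with bars of 1 standard error and filled points where the adjusted p was under 0.05. Filled points are Entpd1 at -0.73 in Flt3L KO cDC1 and P2ry14 at 1.02 and P2ry13 at 0.72 in Flt3L KO cDC2.

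Markers of other cells moved in the same Flt3L KO cDC2 arrays. Of 8 cDC1 markers, 2 rose in Flt3L KO cDC2 against WT cDC2, Irf8 by 0.52 (adjusted p = 0.00787) and Cadm1 by 0.56 (adjusted p = 0.0172), and 0 fell. The other 6 were not called: Xcr1 had a mean of 66.3 in Flt3L KO cDC2 against 66.6 in WT cDC2, Clec9a 141 against 162, Tlr3 43.3 against 48.5, Itgae 39.98 against 39.2, Cd8a 74.9 against 61.4, and Batf3 629.98 against 556. The P2ry14 difference between Flt3L KO and WT cDC2 equalled 2.96% of its WT cDC1 level. For the 8 markers the same share was 8.52% for Batf3, 4.15% for Irf8, 3.23% for Cadm1, 1.53% for Cd8a and 0.154% for Itgae. It was -0.00982% for Xcr1, -0.461% for Tlr3 and -0.698% for Clec9a. P2ry14 thus stood between Cadm1 and Cd8a. Batf3 marks cDC1 least sharply here: its WT cDC2 level was 63.6% of its WT cDC1 level. For the other markers that level was 2.32% (Xcr1) to 9.61% (Irf8), and for P2ry14 2.84%. The summed cDC1 marker intensity was 1587 to 1598 in Flt3L KO cDC2, 1641 to 1701 in Flt3 KO cDC2 and 1297 to 1394 in WT cDC2.

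Macrophage markers showed a wider change. Of 8 tested, 6 rose in Flt3L KO cDC2 against WT cDC2 (C1qa by 2.20, C1qb by 1.99, C1qc by 1.63, Vcam1 by 1.19, Mertk by 1.00 and Axl by 0.94), Adgre1, which encodes F4/80, fell by 0.67, and Spic was not called. Their summed intensity, with the dim Cd5l and Slc40a1 included, was 2677 to 3142 in Flt3L KO cDC2, 2028 to 2070 in Flt3 KO cDC2 and 1755 to 1783 in WT cDC2, and no marker was at 0. C1qa had 790 and 569 in Flt3L KO cDC2, 363 and 279.8 in Flt3 KO cDC2, and 135 and 157 in WT cDC2, so that the groups had the same order as for P2ry14 and P2ry13. Flt3L KO cDC2 replicate 1 was the higher of its pair for C1qa, P2ry14 and P2ry13. That array was also the higher for every other nucleotide-sensing gene followed here except Entpd1. The match with C1qa was therefore not particular to P2ry14 and P2ry13, and with 2 arrays such a match carries little weight. Of the monocyte markers 1 of 4 tested rose, Treml4, by 0.72, and of the cDC2 markers 1 of 8 fell, Clec4a4, by 0.70. The part of these markers in the P2ry14 and P2ry13 results was not tested.

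In Flt3L KO cDC1, where Entpd1 fell, 0 of 8 macrophage markers were called (1 at an unadjusted p under 0.05) and 1 of 8 cDC1 markers fell, Tlr3, by 0.69. Markers of platelets, B cells, T cells, NK cells, plasmacytoid dendritic cells and neutrophils gave 0 calls by limma in Flt3L KO against WT in either cell type. Of these 26 tested markers, 5 in cDC1 and 3 in cDC2 had an unadjusted p under 0.05.

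**Figure D4:**
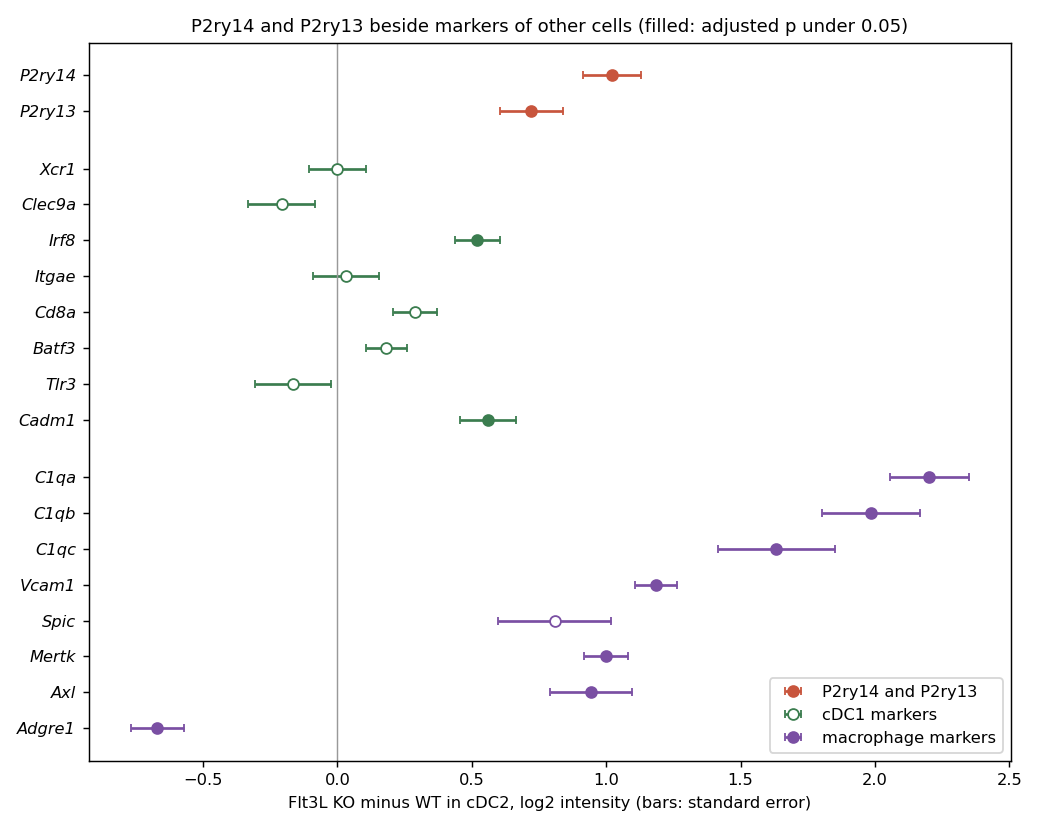
Difference of Flt3L KO minus WT cDC2 in log2 intensity for P2ry14 and P2ry13, for the 8 cDC1 markers and for the 8 tested macrophage markers, with bars of 1 standard error and filled points where the adjusted p was under 0.05. P2ry14 stands at 1.02, Xcr1 at -0.00 and C1qa at 2.20.

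The genes next to P2ry14 were compared with it. Gpr171, a G protein-coupled receptor gene beside it, was also higher in WT cDC1 than in WT cDC2, by 2.95 on the log2 scale (adjusted p = 1.7e-10), and so was the noncoding gene F630111L10Rik, by 3.03 (adjusted p = 3.0e-09). F630111L10Rik overlaps the first start of P2ry14, and without known strand of the probes their signals may not be separate. In Flt3L KO minus WT cDC2, Gpr171 differed by 0.38 (adjusted p = 0.0866) and F630111L10Rik by 0.29 (adjusted p = 0.382), and neither passed. Med12l, whose span holds the cluster, had 0.45 for WT cDC1 minus WT cDC2 and -0.03 for Flt3L KO minus WT cDC2.

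For the 3 genes whose 6 group means spanned more than 1 on the log2 scale, the most similar patterns were taken as the smallest root mean square difference of centred log2 group means over the 6 groups. For P2ry14 these were Rab7b (0.22), Pdia5 (0.32) and Plpp1 (0.36). For P2ry13 they were Cdc42ep2 (0.07), Gda (0.08) and Ctsd (0.09), and for P2ry10 they were Dmtf1 (0.03), Elmo1 (0.04) and Smarca2 (0.04). Of the P2ry14 neighbours in pattern, Rab7b differed by 0.43 in Flt3L KO minus WT cDC2, which is less than the 1.02 of P2ry14. The other neighbours moved less: Pdia5 had a mean of 65.1 in Flt3L KO cDC2 against 61.6 in WT cDC2, and Plpp1 22.8 against 21.0. These genes were picked on the same group means, so their differences are a description without a test.

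A wider purinergic set held 91 other genes; 78 were on the arrays with a value, and 73 passed the filter on dim genes. In WT, 21 were higher and 20 lower in cDC1 than in cDC2, where 21.0% of all tested genes were higher and 18.4% lower. Among 13 tested genes of enzymes that act on nucleotides, 6 were higher and 2 lower in cDC1. Enpp4 was 5.42-fold higher, while Entpd4, a nucleotidase of internal membranes, was lower with a mean of 137 in WT cDC1 against 545 in WT cDC2. Bst1, which makes cyclic ADP-ribose, was 6.36-fold higher. Of 9 tested genes for release of nucleotides, 2 were higher and 3 lower in cDC1. Among the lower ones, Ank, an exporter of ATP and pyrophosphate, was 6.82-fold lower and the channel gene Panx1 1.98-fold lower.

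Of the P2X7 and inflammasome genes, 6 of 10 were lower and 1 higher in WT cDC1 than in WT cDC2. Of all tested genes 18.4% were lower and 21.0% higher, and the same shares apply to the counts below. Nlrp3, the inflammasome sensor, was 3.29-fold lower and Casp1, its protease, 3.27-fold lower, while P2rx7 itself had the higher level in cDC1. In adenosine handling, 4 of 8 were lower and 1 higher: Adk, which phosphorylates adenosine, was 2.30-fold higher, while the transporter gene Slc29a1 was 1.77-fold lower and the deaminase gene Ada 1.49-fold lower. Of UDP-sugar supply genes 2 of 8 were higher and 1 lower, near the shares of all tested genes. Slc35d2, a transporter of UDP-sugars, was 1.83-fold higher.

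In Flt3L KO against WT cDC2, 2 of these 73 rose and 1 fell, where 1.04% of all tested genes rose and 0.910% fell. P2ry2, a receptor for ATP and UTP that lies next to P2ry6 on chromosome 7, rose by 0.73 (adjusted p = 0.0267), to a mean of 62.8 against 38.0 in WT. Gjb2, a connexin gene, rose by 0.83 (adjusted p = 0.00479), and Nlrp3 fell by 0.38 (adjusted p = 0.0273). In Flt3L KO cDC1 1 of 73 rose and 0 fell, where 0.776% of all tested genes rose and 0.415% fell. The gene was the inflammatory caspase gene Casp4, which rose by 0.81 (adjusted p = 0.00301). In Flt3 KO cDC2 1 of 73 passed, where 0.107% of all tested genes did: Enpp5 rose by 0.69 (adjusted p = 0.0356). In Flt3 KO cDC1 0 of 73 passed by limma (12 at an unadjusted p under 0.05), where 0.0803% of all tested genes did. Over these knockout comparisons 5 genes were called, against 2 when any 1 array of Flt3L KO cDC2 or WT cDC2 was left out, 8 without WT cDC1 replicate 1 and 11 without WT cDC1 replicate 2. The 4 adenosine receptor genes of the wider set had no value among the genes used here, and so were not analysed.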

How the data were processed

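Total RNA of sorted spleen cells was amplified and biotin-labelled with Ambion WT Expression and GeneChip WT Terminal Labeling kits, per the labels' protocols. Each deposited value is a linear intensity of 1 probe set on 1 array; the authors' summarisation and normalization are not given in the sources used here. Of 30177 probe sets, 21789 had 1 gene symbol in the platform annotation, 1621 had several and 6767 were unnamed. Entrez IDs of 21698 were checked against RefSeq, and 0 symbols changed. Each gene took its probe set with the highest mean, and the lowest share of 0.25 of 19938 genes by mean log2 was left out. A limma 3.58.1 model (R 4.3.3, 6 residual degrees of freedom) with 6 group means was fitted to the log2 values of all 12 arrays, with p-values adjusted by Benjamini-Hochberg over 14953 genes within a comparison and called under 0.05. The method was tested on simulated data. An exact permutation test of 2 against 2 arrays cannot go below 0.333.

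The 10 genes, the gene lists and markers were chosen with earlier results of these data known. Named genes are the 10, Flt3 and Flt3l, of each purinergic list up to 3 called genes with the smallest p, neighbours, nearest patterns and markers. Alternatives were quantile normalization, other filters, a trended and robust prior, the mean of probe sets, only the arrays compared, a replicate block and each array left out. Deviations of equally numbered replicates correlated between -0.20 and 0.17 across groups, so the numbers were not taken as pairs. Median standard error was 0.09 on the log2 scale.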

Additional observations from a re-analysis of the deposited data

Results flagged for a closer look

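The Flt3L KO effect on P2ry14 differed between the cell types by a test of the difference itself. It was -0.11 in cDC1 and 1.02 in cDC2 on the log2 scale, Flt3L KO minus WT, so the effect in cDC1 minus that in cDC2 was -1.13 (limma, adjusted p = 0.00693). The result holds for the log2 scale, since the gene was far brighter in cDC1. In array units the means were 1180 in Flt3L KO and 1275 in WT cDC1, and 74.0 and 36.3 in cDC2. Both Flt3L KO cDC2 arrays lay above both WT cDC2 arrays, and both Flt3L KO cDC1 arrays lay below both WT cDC1 arrays. The difference in cDC1 was not called (limma, adjusted p = 0.637). Such separation was common there: among the 9 tested genes, Flt3L KO cDC1 lay wholly above WT cDC1 for 3 and wholly below for 4. The difference of effects was called with each of the 8 arrays left out in turn.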

How the results depend on the processing

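P2ry14 remained called in Flt3L KO against WT cDC2 in 12 of 12 alternatives (adjusted p = 3.6e-05 to 0.0129) and in the difference of effects in 16 of 16. Entpd1 in cDC1 was called in 11 of 12 and P2ry13 in cDC2 in 10 of 12. With only the arrays compared, the genes called of the 9 in Flt3L KO cDC1 went to 0, a fit with fewer arrays. With 1 array left out, the number called in Flt3L KO cDC2 was 1 to 2, and in Flt3L KO against Flt3 KO cDC2 0 to 1. For the Flt3L KO difference of effects, 2 were called with quantile normalization, with a share of 0.5 left out and with a trended and robust prior, Entpd1 being added (adjusted p = 0.0491, 0.0476 and 0.024). With 1 array left out the number was 1 to 2, P2ry10 being added without WT cDC1 replicate 2 (adjusted p = 0.0456). The cause was not tested. The 5 calls of other purinergic genes in knockouts against WT within a cell type became 12 with the trended and robust prior, 11 with the crossed replicate block and 2 to 11 with 1 array left out (11 without WT cDC1 replicate 2, 8 without WT cDC1 replicate 1, and 2 without either array of Flt3L KO cDC2 or of WT cDC2).

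The replicate block left the number of the 9 genes called at 1 in Flt3L KO cDC1, 2 in Flt3L KO cDC2 and 0 in both Flt3 KO comparisons, and changed no other call among them. It gave 118 called genes in Flt3L KO cDC1 in place of 178. A block with crossed numbers, chosen after seeing the data, gave 281 there and called the same numbers of the 9. With 1 array left out, the genes called among all tested numbered 3 to 1133 in Flt3 KO cDC1 (12 with all arrays, and 1133 without WT cDC1 replicate 2), 2 to 6 in Flt3 KO cDC2 (16), 25 to 610 in Flt3L KO cDC1 (178), 72 to 164 in Flt3L KO cDC2 (291) and 20 to 490 for the Flt3L KO difference of effects (74). The trended and robust prior gave 35, 36, 545, 487 and 208 for the same comparisons, and only the arrays compared gave 3 in Flt3 KO cDC1 and 6 in Flt3L KO cDC1. Having 2 arrays per group limits every value, and for dim signals such as P2ry12, P2ry1, Nt5e and P2ry14 in cDC2, background may understate differences.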
